A study of Mus musculus with 6 samples.

Results

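The genes described are Trp53, which encodes the transcription factor p53, and 9 of its best known transcriptional targets, Cdkn1a, Mdm2, Ccng1, Bax, Bbc3, Pmaip1, Zmat3, Eda2r and Sesn1. They were listed by name as established members of the p53 pathway, with earlier results of these data known. All 10 were found among the 17068 genes of the count table. The question was whether Cdkn1a, which codes for the cell cycle inhibitor p21, differed together with other p53 targets or without them.

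RNA was sequenced from lateral cortex of 6 female mouse embryos of strain c57/bl6 at embryonic day 12.5. The 4 control libraries lacked Cre, and controls 1, 2 and 4 had the genotype Foxp1 fl/+ while control 3 was Foxp1 fl/fl. The 2 libraries of the other group were labelled Foxp1 fl/fl;Emx1Cre and are called Foxp1cKO. The floxed Foxp1 allele was therefore present in both groups, and the groups differed by Emx1Cre and, for 3 of 4 controls, by the number of floxed copies. Emx1Cre is active in the dorsal telencephalic lineage, so cells of vessels, blood and meninges in the dissected tissue are not its targets.

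p53 is held at a low level in unstressed cells because Mdm2 binds it and marks it for degradation. DNA damage, oncogene activity, nucleotide shortage and other stresses stabilise the protein, which then binds DNA as a tetramer and activates its targets. p53 is regulated largely through protein stability, so the mRNA of Trp53 does not measure its activity, which is read instead from target genes. In the embryonic cortex, p53 activation in radial glia is known to cause cell death and small brains in several mouse mutants. Cdkn1a is also controlled by factors other than p53.

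The sequence that p53 binds was looked for in the 250 bases upstream of annotated RefSeq transcript starts (GRCm38.p6), which covered 8 of the 10 genes in 12 windows. Zmat3 and Pmaip1 had no entry. The p53 consensus has 20 bases, made of 2 copies of a 10-base half-site of 3 purines, a C, 2 bases that are each A or T, a G and 3 pyrimidines. Both strands were searched, and the consensus has the same form on both. The best matches of 5 genes are shown because they span the range from a near-complete to a poor match, with capitals for bases that fit the consensus and lower case for those that do not.
Cdkn1a: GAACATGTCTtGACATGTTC
Ccng1: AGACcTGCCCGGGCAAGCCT
Bbc3: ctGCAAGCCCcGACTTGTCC
Bax: AGcaTAtCCCAGGCAAGCTT
Mdm2: GAACTTGCCTAGcgAccaTT

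The Cdkn1a and Ccng1 matches each had 1 mismatch, a closeness reached in 0.0761% of all 32851 windows. The Cdkn1a match lay at chr17:29090928-29090947 on the plus strand, 51 to 32 bases before the first annotated start and 2841 bases before the second one. Its surroundings at chr17:29090898-29090967 are given next, and there the capitals mark the whole 20-base match.
Cdkn1a upstream: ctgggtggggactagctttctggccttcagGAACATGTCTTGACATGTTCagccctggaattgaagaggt

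The Ccng1 match lay at chr11:40755462-40755481 on the minus strand, 195 to 176 bases before the start. Bbc3 (chr7:16309486-16309505, plus strand) and Bax (chr7:45467090-45467109, minus strand) had 3 mismatches each, as had the best windows of Trp53 and Sesn1. At most 3 mismatches were found in 5.32% of all windows. The best matches of Mdm2 (chr10:117710925-117710944, minus strand) and Eda2r had 5 and 6 mismatches, and 71.1% of all windows held a match with at most 5. These windows are short and leave out introns, and p53 is known to act on Mdm2 through its first intron. A perfect 10-base half-site was present in 7.13% of all windows, and the core letters CATG, which occur 2 times in the Cdkn1a match, in 53.9%. The letters ACGTG or GCGTG, the core of the hypoxia response element, were searched for on both strands because several p53 targets also respond to low oxygen. They were in 8 of the 12 windows, 3 of which belong to Bbc3, and in 38.6% of all windows. A match describes letters only, and binding was not measured.

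Foxp1 itself was read first as a check of the labels. Foxp1 was at 59.7, 60.8, 71.2 and 79.1 CPM (counts per 1000000 counts of the library, scaled with edgeR's TMM factors) in controls 1 to 4 and at 83.2 and 76.8 CPM in Foxp1cKO 1 and 2. The groups overlapped, and the level in Foxp1cKO was no lower than in controls (log2 fold change 0.24, SE 0.129, edgeR adjusted p = 0.468). Reads from the deleted exons were not counted apart from those of the remaining exons, so this value is no check of the deletion. Groups are therefore named by their labels. Library totals ran from 50076008 to 78346979 counts. The tissue was checked by marker genes: 7 of 8 cortical progenitor markers were in the table, with a summed level of 1850 to 2455 CPM in controls and 2127 to 2241 CPM in Foxp1cKO. All values are from whole tissue, so a change in RNA per cell and a change in the number of cells that express a gene cannot be told apart. Each library is taken as 1 embryo, and p-values measure the spread between these libraries.

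None of the 10 genes passed an adjusted p of 0.05 in the edgeR quasi-likelihood test over all 17068 genes, a test that called 0.152% of all genes, each of them higher in Foxp1cKO. At an unadjusted p under 0.05, Cdkn1a, Ccng1, Bbc3 and Eda2r were higher and no member was lower, against 6.53% of all genes higher and 6.50% lower, or 13.0% in either direction. DESeq2 called Cdkn1a alone among the 10, against 3.36% of the 15067 genes to which it gave an adjusted p, or 2.06% called as higher. limma on variance-stabilised values called none. In 5 genes (Cdkn1a, Mdm2, Ccng1, Bbc3 and Eda2r) both Foxp1cKO libraries lay above all controls, which held for 11.5% of all genes. In Trp53 and Bax both lay below all controls, as in 13.1% of all genes. The groups were apart in one direction or the other in 24.6% of all genes. In Pmaip1, Zmat3 and Sesn1 the groups overlapped. The median log2 fold change of the 10 genes was 0.20, and that of all genes was -0.0045.

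**Figure D1:**
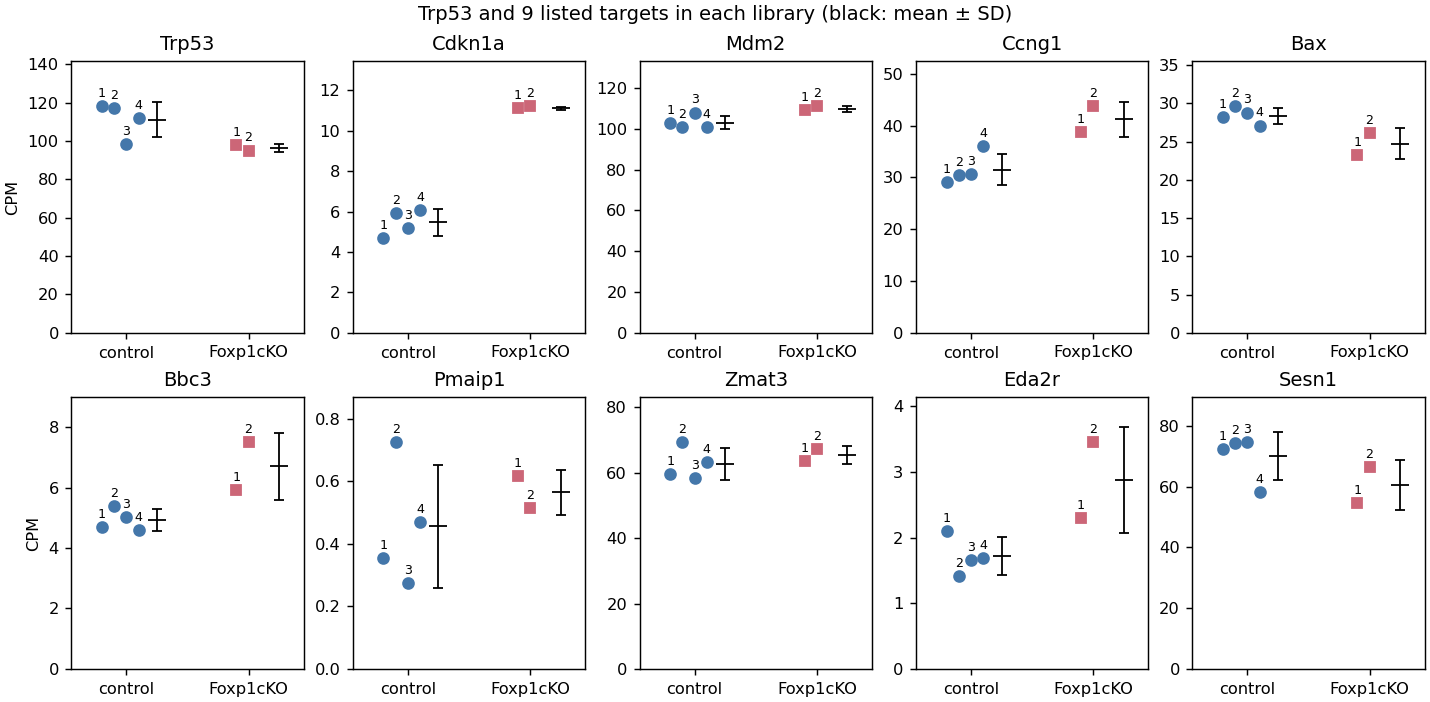
Level of Trp53 and its 9 listed targets in each library. The vertical axes give CPM from 0, points are libraries with their replicate number (blue for 4 controls, red for 2 Foxp1cKO), and black bars are the mean with SD. Cdkn1a has the widest gap between the groups, from 6.07 CPM in the highest control to 11.1 CPM in the lower Foxp1cKO library.

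Cdkn1a encodes p21, which inhibits cyclin-dependent kinases and can stop cells in G1. Its level was 4.67, 5.92, 5.17 and 6.07 CPM in controls 1 to 4 (counts of 289, 368, 377 and 478) and 11.1 and 11.2 CPM in Foxp1cKO 1 and 2 (counts of 558 and 850). Both Foxp1cKO libraries were above every control and lay close to each other. The means were 5.46 ± 0.658 CPM (SD, n = 4) and 11.1 ± 0.0831 CPM (SD, n = 2), a 2.04-fold difference. The log2 fold change was 1.03 with a 95% interval of 0.66 to 1.40 and an SE of 0.157. Its unadjusted p was 0.000307 in edgeR's test and its edgeR adjusted p was 0.0919, above the threshold. DESeq2 gave the same log2 fold change of 1.03 with an adjusted p of 1.09e-07. A change of this size or larger, in either direction, was seen in 3.08% of all genes. With any 1 library left out, the log2 fold change stayed between 0.94 and 1.09, and the edgeR adjusted p ranged from 0.0617 to 0.486. The distance from each control to the Foxp1cKO mean was 1.25, 0.91, 1.10 and 0.87 on the log2 scale for controls 1 to 4. Cdkn1a (ENSMUSG00000023067.13) lies at chr17:29090976-29100727 (mm10, plus strand), and 7.68% of its exon bases are overlapped by an annotated transcript on the opposite strand. The libraries were stranded, but the strand setting of the counting was not given in the sources used here. Reads of that transcript may therefore be included, or reads in the overlap left uncounted as ambiguous.

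The other cell cycle target among the 10, Ccng1 (chr11:40748552-40755311, minus strand), encodes cyclin G1, which recruits a phosphatase to Mdm2. It was at 29.1, 30.5, 30.6 and 36.0 CPM in controls 1 to 4 and at 38.8 and 43.7 CPM in Foxp1cKO 1 and 2. The groups did not overlap, although control 4 came close to Foxp1cKO 1. The means were 31.5 ± 3.04 CPM (SD, n = 4) and 41.2 ± 3.42 CPM (SD, n = 2), with a log2 fold change of 0.39 (SE 0.11, 95% interval 0.13 to 0.65, edgeR adjusted p = 0.278). DESeq2 gave an adjusted p of 0.0618. The distance to control 4 was 0.19 on the log2 scale, against 0.43 to 0.50 for the other controls.

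Mdm2 (chr10:117688875-117710758, minus strand), the ubiquitin ligase that removes p53 and is itself a p53 target, was among the more abundant members. It stood at 103, 101, 108 and 101 CPM in controls 1 to 4 and at 109 and 111 CPM in Foxp1cKO 1 and 2. The Foxp1cKO libraries were above all controls, but by very little. Its log2 fold change was 0.09 (SE 0.0672, edgeR adjusted p = 0.615), and the 95% interval of -0.07 to 0.24 lay entirely below that of Cdkn1a.

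The 4 targets linked to cell death did not share a direction. Bax (chr7:45461697-45466898, minus strand) forms pores in the outer mitochondrial membrane. It was at 28.2, 29.6, 28.8 and 27.1 CPM in controls 1 to 4 and at 23.3 and 26.1 CPM in Foxp1cKO 1 and 2, below every control. Its log2 fold change was -0.20 (SE 0.0905, 95% interval -0.41 to 0.01, edgeR adjusted p = 0.407). Of its exon bases, 12.2% are shared on the same strand with the annotated gene Gm45808, so part of its reads may have been left uncounted as ambiguous.

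Bbc3 (chr7:16308393-16318205, plus strand) encodes Puma, a BH3-only protein that neutralises pro-survival Bcl-2 proteins. It was at 4.68, 5.39, 5.02 and 4.61 CPM in controls 1 to 4 and at 5.92 and 7.49 CPM in Foxp1cKO 1 and 2. Both Foxp1cKO libraries were above the controls, Foxp1cKO 2 more clearly so. The log2 fold change was 0.45 (SE 0.168, 95% interval 0.05 to 0.84, edgeR adjusted p = 0.35), and it ranged from 0.25 to 0.60 when 1 library was left out.

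Eda2r (chrX:97333840-97377216, minus strand), the receptor for ectodysplasin A2 and a member of the tumour necrosis factor receptor family, was at 2.10, 1.42, 1.66 and 1.69 CPM in controls 1 to 4 and at 2.30 and 3.45 CPM in Foxp1cKO 1 and 2. The value of control 1 was close to that of Foxp1cKO 1. The log2 fold change of 0.75 (SE 0.254, 95% interval 0.15 to 1.35, edgeR adjusted p = 0.315) was the second largest among the 10 genes. It rested much on 1 library, since it was 0.41 without Foxp1cKO 2 and 1.01 without Foxp1cKO 1.

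Pmaip1 encodes Noxa, a further BH3-only protein, and was the least abundant of the 10 genes. Its counts were 22, 45, 20 and 37 in controls 1 to 4 and 31 and 39 in Foxp1cKO 1 and 2, or 0.274 to 0.724 CPM in controls and 0.514 to 0.616 CPM in Foxp1cKO. Both Foxp1cKO libraries lay within the range of the controls. The 95% interval of the log2 fold change, from -0.68 to 1.3, held both 0 and the value of Cdkn1a.

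Zmat3 (chr3:32334792-32366014, minus strand), an RNA-binding protein that acts downstream of p53, was at 59.6, 69.3, 58.4 and 63.2 CPM in controls 1 to 4 and at 63.6 and 67.4 CPM in Foxp1cKO 1 and 2. The groups overlapped, and the log2 fold change was 0.06 (SE 0.0921, 95% interval -0.15 to 0.28, edgeR adjusted p = 0.804). Sesn1 (chr10:41809935-41908424, plus strand), a sestrin that restrains mTORC1 signalling, was at 72.5, 74.3, 74.5 and 58.1 CPM in controls 1 to 4 and at 54.7 and 66.4 CPM in Foxp1cKO 1 and 2. Control 4 lay between the Foxp1cKO libraries and apart from the other controls. The log2 fold change was -0.21 (SE 0.133, 95% interval -0.52 to 0.11, edgeR adjusted p = 0.539), and it was -0.37 without Foxp1cKO 2 and -0.07 without Foxp1cKO 1.

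Trp53 (ENSMUSG00000059552.13, chr11:69580359-69591873, plus strand) was at 118, 117, 98.2 and 112 CPM in controls 1 to 4 and at 98.0 and 95 CPM in Foxp1cKO 1 and 2. Foxp1cKO 1 and control 3, the control that was Foxp1 fl/fl, had nearly the same level. The means were 111 ± 9.16 CPM (SD, n = 4) and 96.5 ± 2.11 CPM (SD, n = 2), with a log2 fold change of -0.21 (SE 0.0941, 95% interval -0.43 to 0.02, edgeR adjusted p = 0.409). Without control 3 it was -0.28.

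**Figure D2:**
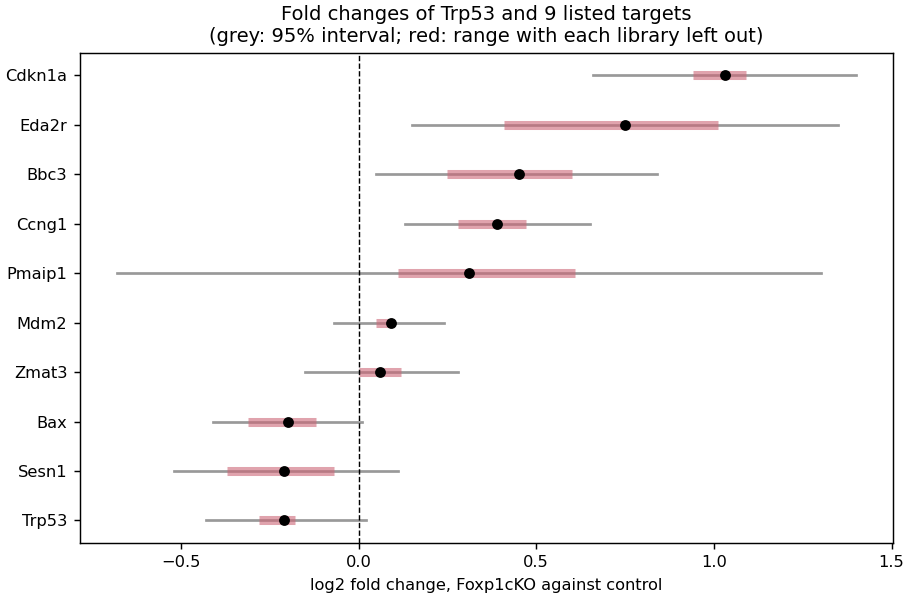
Log2 fold change of each gene, Foxp1cKO against control, from edgeR. Points are the estimates over 4 control and 2 Foxp1cKO libraries, grey lines are 95% intervals, red bars span the estimates with each library left out, and the dashed line marks no difference. The interval of Cdkn1a (0.66 to 1.40) lies above those of Ccng1, Mdm2, Zmat3, Bax, Sesn1 and Trp53 and overlaps those of Eda2r, Bbc3 and Pmaip1.

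Levels of different genes were compared per kilobase of exon. In controls, Trp53 (27.5 ± 2.27 CPM per kilobase, SD, n = 4) and Mdm2 (20.4 ± 0.631) were the most abundant, followed by Bax (18 ± 0.658) and Sesn1 (17.5 ± 1.98), which did not differ beyond their spread. Ccng1 (8.98 ± 0.866) and Zmat3 (5.48 ± 0.427) came next. Bbc3 was at 2.32 ± 0.169 and Cdkn1a at 1.54 ± 0.185 CPM per kilobase. Eda2r (0.291 ± 0.0481) and Pmaip1 (0.167 ± 0.0717) were the lowest. Of the 4 genes that were higher at an unadjusted p under 0.05, Cdkn1a, Bbc3 and Eda2r were thus among the 4 least abundant.

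To set Cdkn1a beside the other targets within each library, the level of each gene was expressed relative to its own control mean. Cdkn1a stood at -0.22, 0.13, -0.07 and 0.16 in controls 1 to 4 and at 1.03 and 1.04 in Foxp1cKO 1 and 2 on the log2 scale. The median of the other 8 targets stood at -0.04, 0.08, -0.01 and -0.02 in the controls and at 0.17 and 0.18 in Foxp1cKO. In each Foxp1cKO library 6 of these 8 targets were above their control mean, and Bax and Sesn1 were below it. The excess of Cdkn1a over the other targets was 0.86 by this measure. With uncentred log2 CPM, Cdkn1a minus the median of the other 8 was -2.45 ± 0.13 in controls (SD, n = 4) and -1.51 ± 0.108 in Foxp1cKO (SD, n = 2), a difference of 0.94. That uncentred median is set by abundance. In every library it lay midway between Ccng1 and Bax, and the levels of the remaining targets did not enter it. With the mean of the other 8 in its place, the difference was 0.83. Most of the difference in Cdkn1a was therefore shared neither by the centred median nor by the mean of the other targets. These differences are given as a description, with no test.

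**Figure D3:**
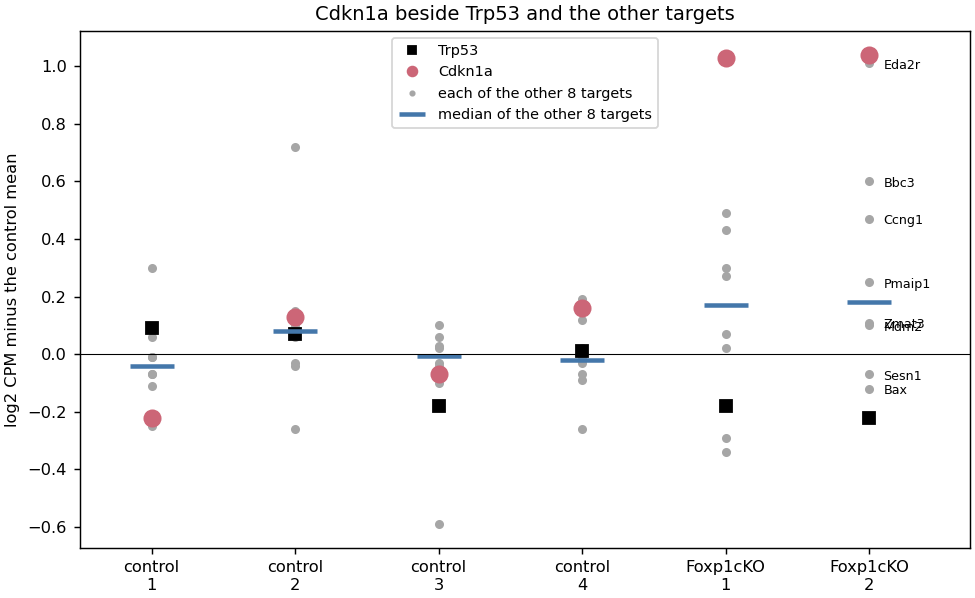
Cdkn1a, Trp53 and the other 8 targets in each library. The vertical axis is log2 CPM minus the mean of the 4 controls for that gene, red circles are Cdkn1a, black squares Trp53, grey points the other targets (named beside Foxp1cKO 2) and blue bars their median. Cdkn1a is at 1.03 and 1.04 in the Foxp1cKO libraries, the median of the other targets is at 0.17 and 0.18, and in Foxp1cKO 2 Eda2r comes close to Cdkn1a.

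The genes whose profile over the 6 libraries lay nearest to that of Cdkn1a were not among the 10. Likeness was the root mean square distance between log2 CPM profiles, each centred on its own mean, over 16994 genes. The 5 nearest were the noncoding RNAs Gm16565 (0.109) and Lhx1os (0.13), Higd1a (0.132), a mitochondrial protein known to be induced by hypoxia, Selenbp1 (0.137) and Pgr, the progesterone receptor (0.144). Higd1a was at 27.7, 27.9, 26.5 and 33.4 CPM in controls 1 to 4 and at 50.6 and 61.7 CPM in Foxp1cKO 1 and 2. The others of the 5 were less abundant, from 0.662 CPM (Pgr, control 1) to 7.91 CPM (Selenbp1, Foxp1cKO 2). None of the 5 passed the edgeR threshold, with adjusted p from 0.0645 (Higd1a) to 0.292 (Pgr). Among the rest of the 10 genes, Ccng1 ranked 487th (0.318), Bbc3 528th (0.323) and Eda2r 818th (0.349). Pmaip1, Zmat3 and Mdm2 ranked between 3432 and 4025. Bax, Trp53 and Sesn1 ranked 11727, 11816 and 12985. Ddit4, a p53 target outside the 10 genes, ranked 580th (0.328). The group difference is part of these profiles, so the ranks do not add evidence for it. Of the exon bases of Higd1a, 22.5% are overlapped by a gene on the opposite strand, and Gm16565 shares 9.45% of its exon bases with Cd247.

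A wider list of 37 further p53 targets had 34 genes in the table, and Fas, Gdf15 and Lif were not analysed here. Of these 34, 14 had a log2 fold change above 0 and 20 below 0, with a median of -0.041. edgeR and limma called 0 of them at the adjusted threshold. DESeq2 called Ddit4 as higher and Tigar as lower, against 3.36% of the genes to which it gave an adjusted p. At an unadjusted p under 0.05, 2 were higher (Ddit4 and Sesn2) and 4 were lower (Aen, Btg2, Tigar and Triap1), against 6.53% and 6.50% of all genes. Sesn2, Aen and Btg2 are named here after their values were seen. Together with the 9 listed targets, 21 of 43 genes were above 0 and 22 below, with a median of -0.029. The targets as a whole were split almost evenly in direction.

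Ddit4, an mTORC1 inhibitor also known as a hypoxia and stress response gene, was at 68.1, 78.3, 71.8 and 54.3 CPM in controls 1 to 4 and at 112 and 197 CPM in Foxp1cKO 1 and 2. Both Foxp1cKO libraries were above all controls but far from each other. Its log2 fold change was 1.18 (SE 0.226, edgeR adjusted p = 0.194, DESeq2 adjusted p = 0.000387). It was 0.70 without Foxp1cKO 2 and 1.53 without Foxp1cKO 1. Pvt1, a long noncoding RNA, had the next highest value of the list at 0.56 (SE 0.248, edgeR adjusted p = 0.402), followed by the noncoding RNA Trp53cor1, which is known to be transcribed near Cdkn1a (0.44, SE 0.355, edgeR adjusted p = 0.623).

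At the low end of the wider list, Tigar, which lowers glycolytic flux, was at 25.8 to 30.4 CPM in controls and at 22 and 21.4 CPM in Foxp1cKO. The Foxp1cKO libraries were below all controls, with a log2 fold change of -0.39 (SE 0.0968, edgeR adjusted p = 0.243, DESeq2 adjusted p = 0.0367). Triap1, a small anti-apoptotic protein, had a log2 fold change of -0.39 (SE 0.127, edgeR adjusted p = 0.301). Ier5, an immediate early gene, was at -0.44 (SE 0.2, edgeR adjusted p = 0.41), with overlapping groups.

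**Figure D4:**
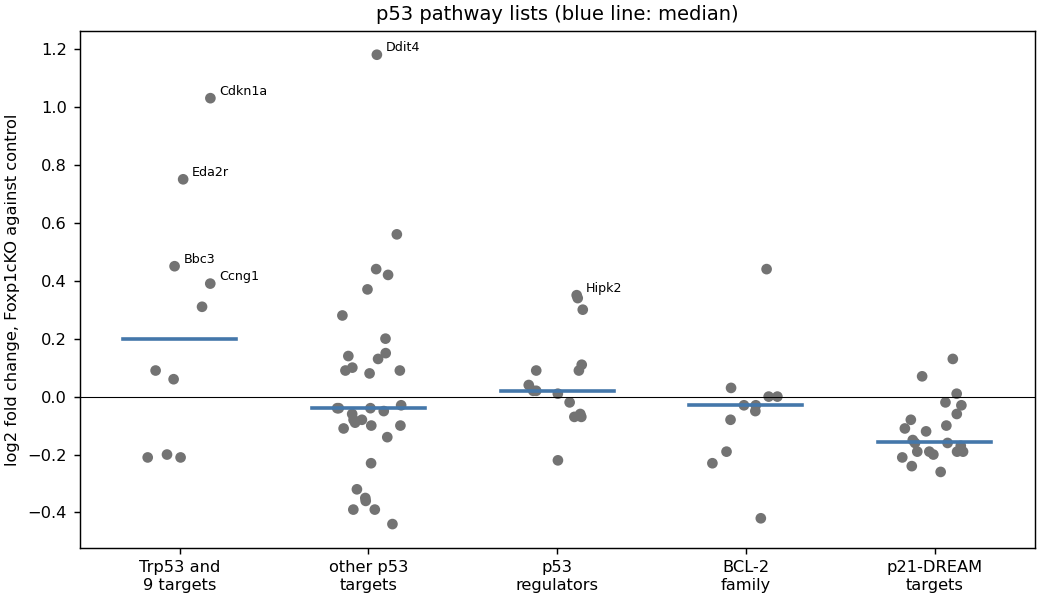
Log2 fold change of each gene, Foxp1cKO against control, in 5 lists of p53 pathway genes. Points are genes, none of which has an edgeR adjusted p under 0.05, blue lines are list medians, and the horizontal line marks no difference. The medians run from -0.154 in the p21-DREAM targets to 0.20 in Trp53 with its 9 targets, and Ddit4 stands highest at 1.18.

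The regulators of p53 were read next. Of 17 listed kinases, ligases, cofactors and family members, 15 were in the table, 10 had a log2 fold change above 0 and 5 below 0, and none passed the adjusted threshold in edgeR, DESeq2 or limma. Hipk2, a kinase that phosphorylates p53 (0.35, SE 0.127), and Crebbp, an acetyltransferase (0.34, SE 0.101), were higher at an unadjusted p under 0.05. This held for 6.53% of all genes. Without Foxp1cKO 1, Hipk2 was at 0.18 and Crebbp at 0.21. The family member Trp73 was at 0.30 (SE 0.156), and at 0.06 without Foxp1cKO 2. Trp53bp1 was lowest at -0.22 (SE 0.114). Atm and Rchy1 were both at -0.07.

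Cdkn1b and Cdkn1c, the other CDK inhibitors of the family of Cdkn1a, were read beside it. Cdkn1b was at 149 to 165 CPM in controls and at 166 and 158 CPM in Foxp1cKO, with a log2 fold change of 0.04 (SE 0.0725, edgeR adjusted p = 0.836). Cdkn1c was at 58.4 to 89.3 CPM in controls and at 51.4 and 66.9 CPM in Foxp1cKO, with a log2 fold change of -0.28 (SE 0.182, edgeR adjusted p = 0.537). In both genes the groups overlapped.

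Of 12 further Bcl-2 family genes, 11 were in the table, 4 with a log2 fold change above 0 and 7 below 0, and none passed the adjusted threshold in edgeR, DESeq2 or limma. Mcl1, a pro-survival member, was at 152 to 166 CPM in controls and at 137 and 131 CPM in Foxp1cKO (-0.23, SE 0.0711, edgeR adjusted p = 0.289). It was the only gene of this list at an unadjusted p under 0.05 in edgeR's test, against 13.0% of all genes. Hrk, a BH3-only gene, was highest at 0.44 (SE 0.251), and Bok was lowest at -0.42 (SE 0.211). The BH3-only genes Bid and Bad were at 0.03 (SE 0.131) and -0.19 (SE 0.119), and the value of Bcl2l11 was within 0.01 of 0 (SE 0.102).

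p21 is known to lower mitotic genes through the repressor complex DREAM. All 22 listed genes of that kind were in the table. Of these, 19 had a log2 fold change below 0, against 8661 of all 17068 genes, and the median was -0.154 against -0.0045 for all genes. None passed the edgeR threshold or an unadjusted p under 0.05 in edgeR, and DESeq2 and limma called none at their adjusted thresholds. The groups overlapped in all 22, as in 12868 of all 17068 genes. The lowest were Cdc20 (-0.26, SE 0.139), Kif20a (-0.24, SE 0.192) and Cdc25c (-0.21, SE 0.156), and the highest were Foxm1 (0.13, SE 0.115), Ect2 (0.07, SE 0.133) and Cenpf (0.01, SE 0.143). The summed level of the list was 3398 to 4888 CPM in controls and 3640 to 3888 CPM in Foxp1cKO, within the range of the controls. A link of these genes to Cdkn1a was not tested.

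Markers of other cells in the dissected tissue were read beside these values. The summed level of 5 erythroid genes was 1285, 982, 1019 and 2806 CPM in controls 1 to 4 and 2978 and 3300 CPM in Foxp1cKO 1 and 2, with 3 of the 5 above all controls in both Foxp1cKO libraries, as in 11.5% of all genes. The microglial sum over 6 genes was 18.1 to 27.8 CPM in controls and 27.5 to 29.0 CPM in Foxp1cKO, and 3 of the 6, Ptprc (log2 fold change 0.74, SE 0.28), Tyrobp (0.48, SE 0.19) and C1qa (0.81, SE 0.297), were above all controls in both Foxp1cKO libraries. The endothelial sum (127 to 196 against 153 to 189 CPM), the mesenchymal sum (107 to 579 against 171 to 361 CPM), the ventral telencephalic sum (155 to 458 against 231 to 333 CPM) and the neuronal sum over 4 of 6 listed genes (1506 to 2905 against 1962 to 2120 CPM) lay within the range of the controls. Of 41 markers in the table, edgeR and limma called 0 at the adjusted threshold and 7 were higher and 0 lower in edgeR's test at an unadjusted p under 0.05, against 6.53% and 6.50% of all genes. These 7 were 3 erythroid genes, the 3 microglial genes above and 1 endothelial gene. DESeq2 called 2 as higher, against 2.06% of the genes to which it gave an adjusted p. They were the endothelial gene Pecam1 (edgeR log2 fold change 0.65, SE 0.169) and the haemoglobin gene Hba-a1 (1.11, SE 0.336). The other endothelial markers ran from -0.35 (Tek) to 0.52 (Emcn), and the other erythroid ones from -0.17 (Hbb-bs) to 1.11 (Hbb-y). The remaining microglial markers were Cx3cr1 (-0.01), Csf1r (0.12) and Aif1 (0.19), each with overlapping groups. These markers are named after their values were seen. The part of other cell types in the values of Cdkn1a and the other targets was not tested.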

How the data were processed

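Bulk RNA-Seq libraries of 6 embryos (4 control, 2 Foxp1cKO) were grouped by their labels. The authors made stranded libraries, aligned reads to mm10 with STAR and counted them per gene with HTSeq 0.9.1, per the submitters' processing notes and the study's methods. They deposited whole-number counts for 17068 genes without normalization, and log2-scale variance-stabilised values of the same table from DESeq2. Litter, a term in their model, is not in the labels and was not used.

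Counts were tested in R 4.3.3 with the edgeR 4.0.16 quasi-likelihood test (TMM, group alone, all genes, Benjamini-Hochberg adjustment, threshold 0.05). DESeq2 1.42.0, limma 3.58.1 on the deposited log2 values, other scalings and filters, each library left out, and a replicate block were alternatives. Scripts were tested on simulated data. Log2 CPM used a prior count of 2. Gene positions and exon lengths came from GENCODE M21 (mm10), which lacked 21 identifiers. Promoter windows came from RefSeq GRCm38.p6.

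The genes and lists were chosen with earlier results of these data known. Named genes were the 10 members, Foxp1, Cdkn1b, Cdkn1c, genes past the threshold in each wider list with its 3 highest and 3 lowest fold changes (mean of at least 10 counts), and the 5 profiles nearest to Cdkn1a. Totals of 50076008 to 78346979 counts put a floor of 3 counts at 0.0383 to 0.0599 CPM, which covers counting error only. The chi-square statistic per gene between libraries of a group was 25.9 to 193, so no library was a copy of another. A gene of the wider target list is not reported here.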

Additional observations from a re-analysis of the deposited data

Results flagged for a closer look

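Sesn1 was the 1 gene of 37 checked (the 10 p53 genes and the 27 other named ones) with a control far from the others. Control 4 was at 58.1 CPM, and the other 3 controls were at 72.5 to 74.5 CPM. The gap between control 4 and its nearest neighbour was 0.89 of the whole control range, above the 95% limit of Dixon's test for 4 values. Chance flags about 1 in 20 such groups. Without control 4, the log2 fold change of Sesn1 was -0.28, against -0.21 with all libraries. It was -0.37 without Foxp1cKO 2 and -0.07 without Foxp1cKO 1.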

How the results depend on the processing

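The number of genes past the threshold depended on the tool and on single libraries. edgeR called 26 of 17068 genes, DESeq2 called 507 (310 higher), and edgeR called 2 to 96 with 1 library left out (6 without control 1, 2 without control 2, 96 without control 4, 9 without Foxp1cKO 1 and 3 without Foxp1cKO 2). Of the 10 p53 genes, edgeR called 0 and DESeq2 called 1, Cdkn1a, with a log2 fold change of 1.03. With 1 library left out, Cdkn1a stayed at 0.94 to 1.09 and its excess over the uncentred median of the other targets at 0.86 to 1.02. That median is set by Ccng1 and Bax alone. The mean of the other targets, with all libraries kept, gave an excess of 0.83. Centring each gene on its control mean, an alternative chosen after seeing the data, gave 0.86. The 10 genes gave 129 fold changes under 13 alternatives, and 1 (Cdkn1a in DESeq2) crossed the threshold. The other 128 kept their direction and did not cross it, though DESeq2 gave Pmaip1 no adjusted p. Pmaip1 was not tested under the filter of 1 CPM in 2 libraries. The replicate block (pairing by replicate number) called 0 genes (3027 at an unadjusted p under 0.05) and gave Cdkn1a 1.08 with an edgeR adjusted p of 0.203. The numbers are shared for 1 and 2 only, and the deviations of same-numbered libraries correlated at -0.198 and 0.0157, so they mark no pairs. Pmaip1, with 20 to 45 counts per library, had the widest interval of the 10 genes, and the parts of depth and of the spread between libraries in it were not tested.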
